A study of Arabidopsis thaliana with 24 samples.

Results

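AT1G06760 and AT2G30620 encode linker histones H1 of Arabidopsis thaliana. Their annotation as linker histone genes defined the pair, with no measured value in the rule, and each is represented on the ATH1 array by 1 probe set, so the results concern 2 of the 22746 probe sets that remained without controls. The probe sets are 260830_at for AT1G06760 and 267492_at for AT2G30620, and neither is shared with another gene.

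Linker histones bind the DNA that enters and leaves a nucleosome and the linker DNA next to it, through a folded globular domain and a long, lysine-rich tail. They hold chromatin in a more compact form, and in plants they limit the access of DNA methyltransferases and other enzymes to heterochromatin. In Arabidopsis AT1G06760 and AT2G30620 are expressed in most dividing and growing tissues, whereas the third linker histone, HIS1-3, is known for its induction by drought and abscisic acid.

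Seedlings of the ecotype Columbia were germinated at 22°C for 3 days, grown at 27°C or 17°C for 7 days in cycles of 12 hours of light and 12 hours of darkness, and floated on liquid MS medium for 12 hours. At dawn 4SU (4-thiouracil), a base analog that is built into new RNA, was added. Total RNA was harvested when 4SU was given (time 0) and when labeling ended, which was 1 hour later for seedlings at 27°C and 2 hours later for those at 17°C, and part of the final RNA was biotinylated and separated on streptavidin columns, which retain the labeled molecules as newly synthesized (NS) RNA and let the unlabeled ones pass as pre-existing (PE) RNA. The study asked how a difference of ambient temperature changes the rates at which mRNA is made and decays.

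The 8 groups were total RNA at the end of labeling, total RNA at time 0, NS RNA and PE RNA, each at 27°C and at 17°C, with 3 biological replicates in every group and 24 arrays in all. All groups share the wild-type ecotype, the floating culture and the whole-seedling source, and no samples used here were kept to the end of labeling without 4SU. The sample labels give an age of 10 days and a dose of 1.5 mM 4SU, whereas the methods give a slightly higher age and state that the concentration was set for each labeling time and temperature. The end of labeling at 27°C and at 17°C differs in the time after dawn as well as in temperature, and these cannot be told apart. In RNA of whole seedlings, fewer cells of a type and less RNA per cell cannot be told apart either.

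Replicate arrays of a group correlated at Pearson's r of 0.959 to 0.987 over the 12906 probe sets whose signal reached 50 on every total RNA array, and no pair of arrays was identical. The signals are MAS5 intensities that were brought to the same trimmed mean on every array, so each value is relative to its array. Median signals lay at 173 to 196 on NS arrays and 121 to 142 on PE arrays. Of the fixed root markers 2 of 7 were named by the annotation used here, among them PYK10, a β-glucosidase of root cells, whose signal was at least 9787 on every total RNA array. None of the 7 fixed leaf markers was named on a probe set of 1 gene, as many probe sets carry no gene name here, so the shoot was not checked.

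At time 0 the transcript of AT1G06760 was higher at 27°C, while that of AT2G30620 did not pass the test. Its signals were 6004.2, 4956.4 and 5643.6 at 27°C, against 2135.5, 1904.1 and 2423.1 at 17°C. The lowest array at 27°C stood above the highest at 17°C by more than the whole range of either group. The share of all probe sets without overlap between groups was not computed, for this or any later comparison. The means were 5535 ± 532 at 27°C and 2154 ± 260 at 17°C (SD, n = 3 each). The difference was 1.36 ± 0.16 on the log2 scale (estimate ± SE, limma), a fold of 2.57 (95% interval 2.02 to 3.27), with an adjusted p of 2.7e-05. Calls required an adjusted p (Benjamini-Hochberg, over all 12906 probe sets) below 0.01 together with a fold of more than 1.5. At time 0, 10.7% of all probe sets tested were called higher and 12.1% were called lower at 27°C.

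AT2G30620 had signals of 6002.6, 4835.5 and 4920.9 at 27°C at time 0, against 4403.4, 3780.7 and 4318.7 at 17°C. These groups did not overlap, but the lowest array at 27°C was close to the highest at 17°C. The means were 5253 ± 651 at 27°C and 4168 ± 338 at 17°C. The difference of 0.33 ± 0.14 (log2) corresponded to 1.26-fold, with an interval of 1.02 to 1.56, and was not called (limma, adjusted p = 0.0814).

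By the end of labeling neither transcript was called different between the temperatures. AT1G06760 had 1370.0, 1400.6 and 945.0 at 27°C, against 1279.7, 1302.8 and 1323.9 at 17°C. Replicates 1 and 2 at 27°C exceeded every array at 17°C and replicate 3 fell below them, so the groups overlapped. The difference was -0.09 ± 0.16 (log2), with an interval of -0.44 to 0.25 (limma, adjusted p = 0.719), and it became 0.09 when replicate 3 at 27°C was left out. AT2G30620 had 2914.4, 2924.3 and 2287.4 at 27°C, against 3060.3, 3241.3 and 3429.6 at 17°C. Here every array at 27°C lay below every array at 17°C. The difference of -0.27 ± 0.14 (interval -0.58 to 0.04) did not pass the test (limma, adjusted p = 0.202). At the end of labeling 10.8% of all probe sets were called in either direction.

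**Figure D1:**
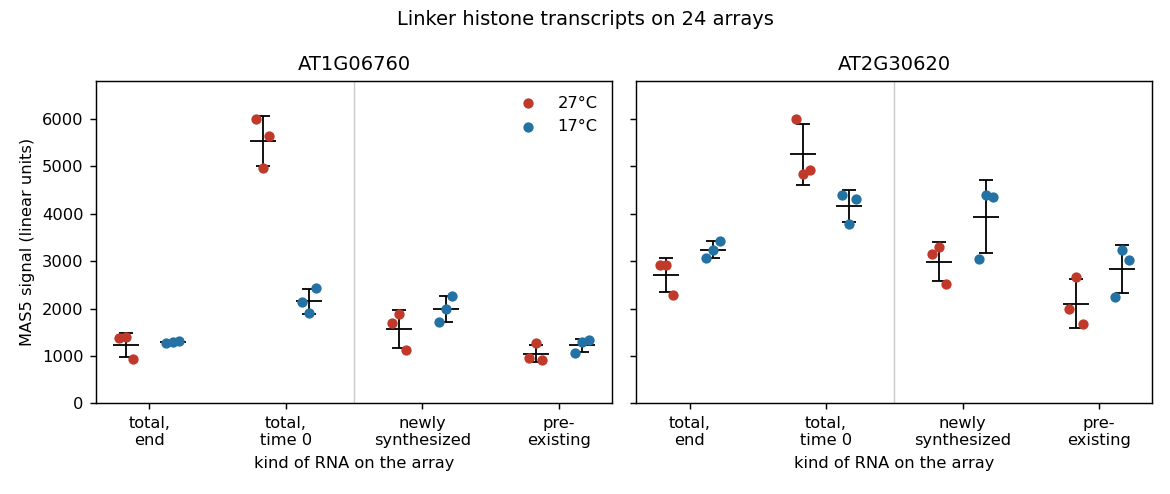
MAS5 signal (linear units) of AT1G06760 (left) and AT2G30620 (right) on each of the 24 arrays, by kind of RNA, with 27°C in red and 17°C in blue. Points are arrays and bars give the mean ± SD of 3 replicates. At time 0 the 27°C arrays of AT1G06760 lie between 4956.4 and 6004.2 and the 17°C arrays between 1904.1 and 2423.1, while all 6 arrays at the end of labeling lie between 945.0 and 1400.6.

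Both transcripts fell during labeling at 27°C. The total signal of AT1G06760 averaged 1239 ± 255 at the end and 5535 ± 532 at time 0. The change was -2.18 ± 0.16 on the log2 scale, or 4.52-fold lower at the end (limma, adjusted p = 4.2e-07), and only 0.318% of all probe sets had a lower value. AT2G30620 averaged 2709 ± 365 at the end and 5253 ± 651 at time 0, a change of -0.96 ± 0.14 (1.94-fold lower, adjusted p = 0.000136). For both genes all 3 arrays at the end lay below all 3 at time 0. In this comparison 14.5% of all probe sets were called lower.

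At 17°C only AT1G06760 was called lower at the end of labeling. AT1G06760 averaged 1302 ± 22.1 at the end and 2154 ± 260 at time 0, again without overlap. The change of -0.72 ± 0.16 (1.65-fold lower) was called (limma, adjusted p = 0.00527), where 6.6% of all probe sets were called lower. That call was lost when any of the 3 end arrays at 17°C, or replicate 1 or 3 at time 0 at 17°C, was left out, with adjusted p between 0.0021 and 0.0291 over the 12 arrays left out in turn, and with the replicate number as a block (adjusted p = 0.0112). AT2G30620 averaged 3244 ± 185 at the end and 4168 ± 338 at time 0, and its change of -0.36 ± 0.14 (1.28-fold lower) was not called (adjusted p = 0.0846).

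The temperature dependence of the decrease was tested as the difference of the changes. For AT1G06760 the change at 27°C minus that at 17°C was -1.46 ± 0.23 (log2), which was called (limma, adjusted p = 0.002), where 1.66% of all probe sets were called lower. It stayed called with each array left out in turn (adjusted p 0.00223 to 0.00746) but not over all 22746 probe sets without the signal limit (0.0276). For AT2G30620 the difference was -0.60 ± 0.20 and not called (adjusted p = 0.0894). Because labeling lasted 1 hour at 27°C and 2 hours at 17°C, these changes cover unequal times. Per hour, an alternative added after the data were seen, the difference of AT2G30620 became -0.78 and passed the limits (limma, adjusted p = 0.00369). In that fit 1488 of the 12906 probe sets were called in either direction, against 307 for the changes not divided by time.

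**Figure D2:**
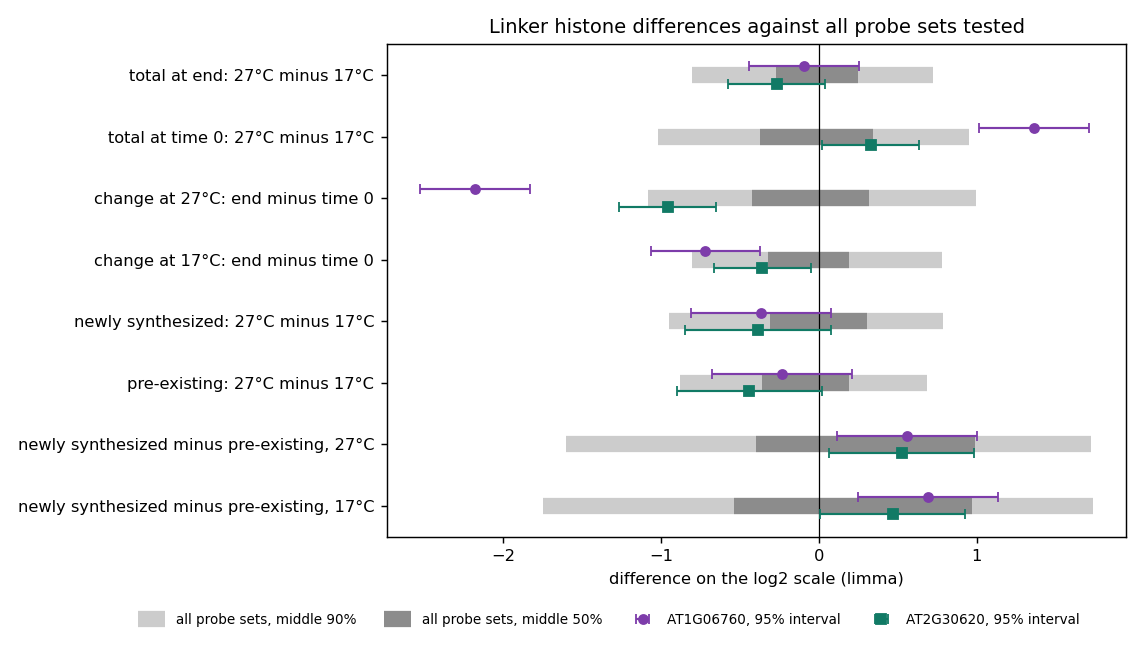
Estimated differences of AT1G06760 (circles) and AT2G30620 (squares) on the log2 scale, with 95% intervals from limma, for the comparisons named at the left. Grey bars give the middle 50% and 90% of the 12906 probe sets tested, and AT1G06760 lies outside the middle 90% at time 0 (1.36) and in the change at 27°C (-2.18).

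The balance between the linker histone transcripts was followed as the ratio of the AT1G06760 signal to the AT2G30620 signal within an array, which does not depend on how arrays were scaled. Since the probe sets differ in brightness, the ratio shows shifts between arrays and not the relative number of molecules. At time 0 it was 1.00, 1.02 and 1.15 at 27°C, against 0.485, 0.504 and 0.561 at 17°C, without overlap. The difference of mean log2 ratios was 1.03 (exact permutation test, two-sided, p = 0.1, the smallest that 3 arrays against 3 allow, and 0.2 after Benjamini-Hochberg adjustment over the 4 kinds of RNA).

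At the end of labeling the ratio averaged 0.454 ± 0.0357 at 27°C and 0.402 ± 0.0161 at 17°C, and the groups overlapped (difference 0.17, exact p = 0.2). In NS RNA it averaged 0.518 ± 0.0689 at 27°C and 0.511 ± 0.0549 at 17°C (difference 0.02, exact p = 0.9), and in PE RNA 0.504 ± 0.0407 at 27°C and 0.436 ± 0.0373 at 17°C (difference 0.21, exact p = 0.1). PE arrays at 27°C lay just above those at 17°C in this ratio, without overlap. None of the 4 differences could pass a threshold of 0.05 in a design of this size.

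**Figure D3:**
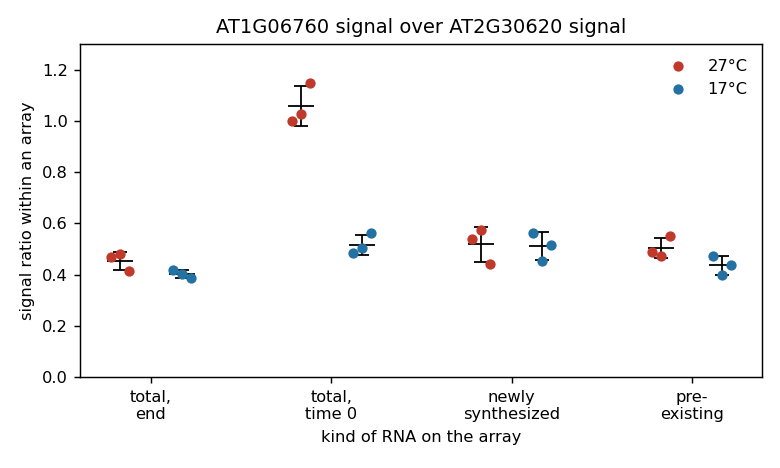
Ratio of the AT1G06760 signal to the AT2G30620 signal within each array, by kind of RNA, with 27°C in red and 17°C in blue. Points are arrays and bars give the mean ± SD of 3 replicates. At time 0 the 27°C arrays lie at 1.00 to 1.15 and the 17°C arrays at 0.485 to 0.561, and the arrays of the other kinds of RNA lie between 0.386 and 0.574.

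NS and PE fractions were compared on their deposited signals, which give the position of a transcript relative to the mean of its fraction. In NS RNA AT1G06760 had 1701.8, 1889.8 and 1114.2 at 27°C, against 1709.4, 1989.3 and 2257.5 at 17°C. AT2G30620 had 3153.8, 3290.9 and 2524.2 at 27°C, against 3043.1, 4395.0 and 4359.7 at 17°C. Both genes overlapped between temperatures, with replicate 3 lowest at 27°C. The differences were -0.37 ± 0.21 for AT1G06760 and -0.38 ± 0.21 for AT2G30620, neither called (limma, adjusted p = 0.211 and 0.205), where 12.0% of all probe sets were called in either direction.

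In PE RNA AT1G06760 had 965.1, 1264.4 and 918.0 at 27°C, against 1064.1, 1283.7 and 1326.1 at 17°C. AT2G30620 had 1979.5, 2663.8 and 1667.1 at 27°C, against 2253.2, 3227.1 and 3025.7 at 17°C. The arrays at both temperatures overlapped for each gene. The differences were -0.23 ± 0.21 for AT1G06760 and -0.44 ± 0.21 for AT2G30620, and neither was called (limma, adjusted p = 0.461 and 0.162), where 8.93% of all probe sets were called in either direction.

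Both linker histone transcripts had higher mean signals on NS arrays than on PE arrays at both temperatures, by about as much as other transcripts. The fit did not pair the NS and PE arrays of 1 RNA sample. At 27°C the difference was 0.56 (1.47-fold) for AT1G06760 and 0.53 (1.44-fold) for AT2G30620. Both were short of the limits for adjusted p and for fold (limma, adjusted p = 0.0263 and 0.0412), beside a median of 0.37 over all probe sets and 37.7% called higher. At 17°C the difference was 0.69 ± 0.21 for AT1G06760, which was called (1.62-fold, adjusted p = 0.00824), and 0.47 ± 0.21 for AT2G30620, which was not (0.064), beside a median of 0.29 and 35.6% called higher. The call for AT1G06760 at 17°C was lost when replicate 1 at 27°C or any replicate at 17°C was left out (adjusted p 0.00331 to 0.0452). Quantile normalization moved the median of all probe sets to 0.08 at 27°C and 0.07 at 17°C. With it AT2G30620 stood at 0.76 at 27°C and 0.70 at 17°C and was called at both. Many probe sets were called under that setting too, in numbers given below with the other alternatives.

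The NS over PE difference did not itself differ detectably between temperatures. At 27°C minus 17°C it was -0.14 ± 0.29 for AT1G06760 (interval -0.76 to 0.49) and 0.06 ± 0.30 for AT2G30620 (interval -0.59 to 0.71), with adjusted p of 0.859 and 0.952 by limma in the same unpaired fit. In this comparison 0.0697% of all probe sets, or 9, were called.

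Rates were derived by the equations of the study's methods, in which a regression over all probe sets puts NS and PE signals on the scale of total RNA. The scaling factors were 0.219 at 27°C and 0.134 at 17°C for NS, and 0.769 at 27°C and 0.847 at 17°C for PE. A decay constant follows from the scaled PE signal at the end and the total signal at time 0 of the same replicate number, and a transcription rate from the scaled NS signal and the decay constant. Both linker histones were among the 6061 probe sets whose scaled PE signal lay below the time 0 signal in all replicates.

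Of the new and old shares, the newly made share of the transcript was close to that of other transcripts. For AT1G06760 the scaled NS signal made up 27.2%, 29.5% and 25.8% of the total at the end of labeling at 27°C, against 18.0%, 20.5% and 22.9% at 17°C. For AT2G30620 it averaged 24.2% ± 0.473 at 27°C and 16.2% ± 2.54 at 17°C (SD, n = 3 each). The medians were 26.1% at 27°C after 1 hour and 15.9% at 17°C after 2 hours over the 12906 probe sets tested, and 29.0% at 27°C and 18.8% at 17°C over the 6061 with rates.

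Less of the old transcript was left than for most other transcripts. Of the AT1G06760 signal at time 0, 12.4%, 19.6% and 12.5% was left in the scaled PE fraction after 1 hour at 27°C, against 42.2%, 57.1% and 46.4% after 2 hours at 17°C. Of AT2G30620, 25.4%, 42.4% and 26.1% was left at 27°C, against 43.4%, 72.3% and 59.4% at 17°C. The medians were 71.8% at 27°C and 81.9% at 17°C over the 12906 probe sets tested, and 51.3% at 27°C and 64.2% at 17°C over the 6061 with rates, which all lost signal by definition. Every replicate of both genes lay below the median of those with rates, except replicate 2 of AT2G30620 at 17°C. Of the probe sets with rates 1.01% had a smaller remainder than AT1G06760 at 27°C, and 10.5% had a smaller one than AT2G30620.

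The half-life of the AT1G06760 transcript was 0.332, 0.426 and 0.333 hours at 27°C, against 1.61, 2.48 and 1.80 hours at 17°C. The half-life of AT2G30620 was 0.505, 0.807 and 0.515 hours at 27°C, against 1.66, 4.28 and 2.66 hours at 17°C. For each gene all replicates at 27°C were shorter than all at 17°C, and in each replicate at both temperatures the half-life of AT1G06760 was the shorter of the pair. The median over all probe sets with rates was 1.10 hours at 27°C and 3.54 hours at 17°C. AT1G06760 stood at the percentile 1.01 of half-lives at 27°C and 16.7 at 17°C, and AT2G30620 at 10.9 and at 38.0. The replicates of AT2G30620 at 17°C ranged widely, with replicate 2 above the median of all probe sets.

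Decay constants were higher at 27°C by 2.42 ± 0.31 (log2) for AT1G06760 and 2.16 ± 0.44 for AT2G30620, and both passed the 5% limit used for rates (limma, adjusted p = 0.00622 and 0.00908). Such calls were common, with 64.4% of probe sets with rates called higher. Set against the median shift of all probe sets, the excess was 0.84 (interval 0.06 to 1.63, adjusted p = 0.363) for AT1G06760 and 0.59 (interval -0.51 to 1.69, adjusted p = 0.575) for AT2G30620. In this test 0 of the 6061 probe sets with rates were called, so it cannot tell whether either gene differs from the common shift.

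Transcription rates were 888, 838 and 579 microarray units per hour for AT1G06760 at 27°C, against 172, 175 and 218 at 17°C. For AT2G30620 they were 1269, 1073 and 1005 at 27°C, against 302, 346 and 376 at 17°C. All replicates at 27°C lay above all replicates at 17°C for each gene. The difference was 2.02 ± 0.21 (log2) for AT1G06760 and 1.71 ± 0.18 for AT2G30620 (limma, adjusted p = 3.6e-06 and 3.7e-06), where 98.0% of probe sets with rates were called higher. Relative to the median shift the values were 0.21 (adjusted p = 0.503) for AT1G06760 and -0.09 (adjusted p = 0.752) for AT2G30620, neither called, where 14.5% were called in either direction.

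Q10, the factor by which a rate grows over a rise of 10°C, was computed from the replicate means. The Q10 of transcription was 4.09 for AT1G06760 and 3.27 for AT2G30620, beside a median of 3.46. The Q10 of decay was 5.40 for AT1G06760 and 4.70 for AT2G30620, beside a median of 2.99, at the percentiles 81.6 and 76.4.

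The rates carry several limits. All replicates of a temperature share 1 pair of scaling factors, whose error is not in the spread, and scaled NS and PE signals summed to 83.6% ± 9.84 of the total for AT2G30620 at 27°C and to 90.1% ± 13.5 at 17°C, against 93.6% ± 10.6 for AT1G06760 at 27°C and 100.1% ± 10.3 at 17°C. The half-lives rest on the level at time 0: with the level at the end of labeling in its place they averaged 1.80 hours at 27°C and 6.70 hours at 17°C for AT1G06760, and 1.40 and 5.29 hours for AT2G30620, which turns the order of the genes. The PE and time 0 arrays of a replicate shared only a number, so values per replicate and their spread rest on that matching. With the mean of the time 0 arrays the half-lives averaged 0.360 and 1.92 hours for AT1G06760, and 0.596 and 2.64 hours for AT2G30620, at 27°C and 17°C.

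**Figure D4:**
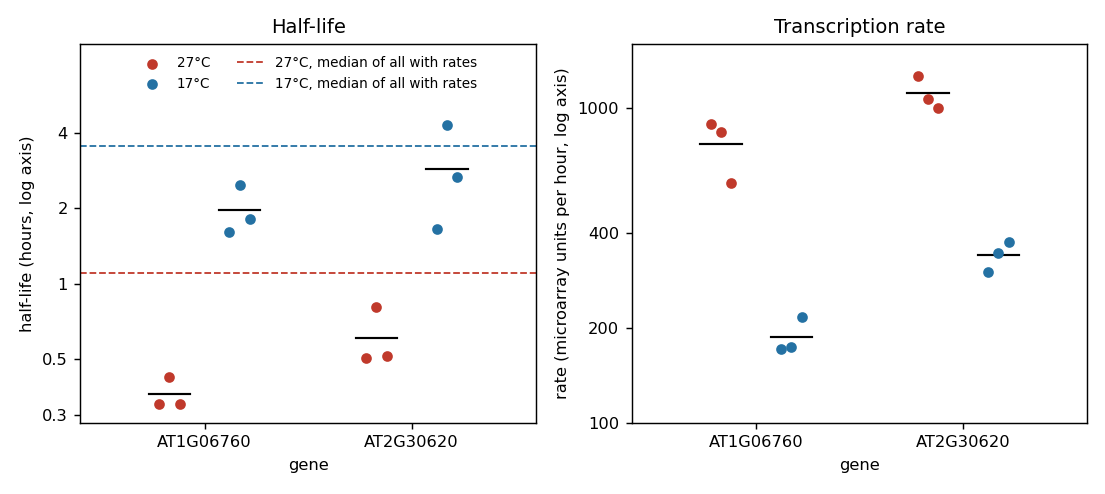
Half-life (left, hours, log axis) and transcription rate (right, microarray units per hour, log axis) of both linker histone transcripts. Points are replicates, black bars their means, and the dashed lines at the left the medians of the 6061 probe sets with rates, 1.10 hours at 27°C and 3.54 hours at 17°C. All replicates at 27°C lie below those at 17°C in half-life and above them in transcription rate.

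HIS1-3 (AT2G18050), the third linker histone, had low signals. Total RNA at the end of labeling gave 177.2, 120.7 and 171.7 at 27°C, against 73.5, 42.1 and 67.9 at 17°C, and time 0 gave 412.9, 267.9 and 587.4 at 27°C, against 125.9, 98.0 and 84.1 at 17°C. In NS RNA it had 123.7, 152.2 and 58.2 at 27°C, against 48.8, 14.6 and 28.4 at 17°C, and in PE RNA 207.0, 129.3 and 140.6 at 27°C, against 114.6, 42.5 and 60.8 at 17°C. In each of the 4 kinds of RNA every array at 27°C was above every array at 17°C, narrowly so in PE RNA (129.3 against 114.6). The 4 kinds are not independent, since NS, PE and total RNA at the end came from the same RNA samples. The share of all probe sets without overlap was not computed. With a lowest total signal of 42.1 it lay under the limit of 50 and entered only the fit over all 22746 probe sets. There the difference at time 0 was 1.99 ± 0.33 (log2) and was called (limma, adjusted p = 0.00337), where 3.81% of all probe sets were called higher. At the end of labeling it was 1.38 ± 0.33 and not called (adjusted p = 0.0312), nor were the differences in NS RNA (1.92, adjusted p = 0.0511) and PE RNA (1.22, adjusted p = 0.212).

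Core histones, the partners of H1 in chromatin, were measured through 3 H2A and 6 H2B transcripts, and no H3 or H4 gene was both named on a probe set of 1 gene and above the limit. Genes on probe sets without a name here are not counted. At time 0, 7 of the 9 were called higher and 1 was called lower at 27°C, with a median of 0.90 (log2), beside 10.7% and 12.1% of all probe sets. RAT5, an H2A gene, was higher by 1.32 ± 0.24 (adjusted p = 0.000627), and the H2B gene AT2G28720 by 2.25 ± 0.16 (adjusted p = 5.6e-07), while the H2A gene HTA6 was lower, at -0.84 ± 0.20 (adjusted p = 0.00425). The number called higher was 4 when replicate 1 or 3 at time 0 of either temperature was left out, and also 4 without the signal limit. Calls over all probe sets fell as well. In the main fit 1385 were called higher, against 1079 to 1125 with 1 of these replicates left out. Without the signal limit 866 of 22746 (3.81%) were called higher. The number called lower was 0 when replicate 2 or 3 at time 0 at 27°C or any time 0 replicate at 17°C was left out, and 0 without the signal limit. Over all probe sets 1556 were called lower in the main fit. That count was 1167 to 1487 with 1 of those replicates left out, and 1051 of 22746 without the signal limit.

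During labeling at 27°C 7 of the 9 core histone transcripts were called lower, with a median of -1.20, beside 14.5% of all probe sets. RAT5 fell by 1.87 on the log2 scale (adjusted p = 3.3e-05), and HTA6, at 0.15, was not called. At 17°C 0 of the 9 were called lower and 1 was called higher, beside 6.6% and 5.78% of all probe sets, and the gene called higher was AT2G28720, by 0.92 (adjusted p = 0.00114). The difference of these changes was called for the H2B genes AT2G28720 at -2.33 ± 0.23 and AT2G37470 at -1.54 ± 0.23, and the median of the 9 was -1.16. With a limit of 100, which AT2G28720 does not reach, 8 transcripts remained. Of these, 6 were called lower at 27°C, 0 were called higher at 17°C and 1 was called for the difference. Without the signal limit the same numbers, 6, 0 and 1, were called of the 9. Over all probe sets the counts in these directions were 1613, 645 and 213 of 10914 with the limit of 100. Without the signal limit they were 1227, 402 and 38 of 22746. The calls for the difference are those called lower. At the end of labeling 0 of the 9 were called between temperatures, beside 10.8% of all probe sets, a share that comes to about 1 in 9. With the limit of 100, 1 of the 8 was called lower there, beside 657 of 10914 probe sets. Of the 9, 1 was called lower when replicate 2 at time 0 at 27°C was left out, beside 818 of all probe sets. The comparisons at time 0 and during labeling at 27°C share the time 0 arrays at 27°C. Rates were available for 4 of the 9 core histones, and all 4 decay constants were called higher at 27°C, beside 64.4% of probe sets with rates. Their median was 4.18 (log2), with SE from 0.28 (HTA7) to 1.35 (HTB2), against 2.42 and 2.16 for the linker histones.

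**Figure D5:**
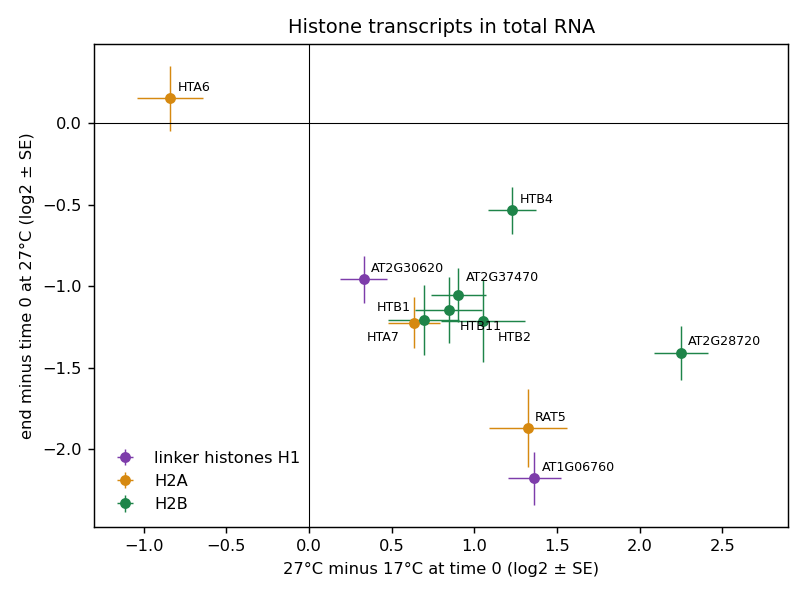
Log2 difference of total RNA at time 0, 27°C minus 17°C (x axis), against log2 change during labeling at 27°C, end minus time 0 (y axis), for both linker histones, 3 H2A and 6 H2B transcripts, with bars of 1 SE. The axes share the 27°C arrays at time 0. AT1G06760 lies at 1.36 and -2.18, AT2G30620 at 0.33 and -0.96, and HTA6 at -0.84 and 0.15.

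Of 4 measured transcripts of other proteins that carry the globular H1 domain together with other motifs, 0 were called at time 0, beside 10.7% of all probe sets called higher and 12.1% called lower. During labeling at 27°C 1 of them was called lower, beside 14.5% of all probe sets, namely HON4 at -0.73 on the log2 scale (adjusted p = 0.0037). TRB2, which binds telomeric repeats, differed by 0.50 at time 0 and was not called (adjusted p = 0.0314).

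Histone chaperones, which carry and deposit core histones, had 3 measured members, and 2 of them were called lower at 27°C at time 0, beside 12.1% of all probe sets. ASF1B was lower, at -1.82 ± 0.23 (adjusted p = 3.9e-05) at time 0 and -1.32 ± 0.23 (adjusted p = 0.000931) at the end of labeling. SGA2, also of the ASF1 family, was lower at time 0, at -0.79 ± 0.15 (adjusted p = 0.00123), and MSI1, a subunit of chromatin assembly factor 1, stood at -0.38 and was not called.

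HMGB1, a high mobility group protein that binds linker DNA, was called higher at 27°C at time 0 by 0.65 ± 0.13 (limma, adjusted p = 0.00151). In that comparison 10.7% of all probe sets were called higher. Unlike the linker histones, its signal was called lower on NS than on PE arrays, at -1.76 at 27°C and -1.29 at 17°C, where 17.9% and 21.9% of all probe sets were called lower. Of the DNA methylation genes DRM2 and DME, 0 were called at time 0, beside 10.7% of all probe sets called higher and 12.1% lower. DRM2, a de novo methyltransferase, was called lower during labeling at 17°C at -0.61 (limma, adjusted p = 0.00733), beside 6.6% of all probe sets. E2F1, the single measured gene of the replication and division list, stood at -0.25 at time 0 and was not called (adjusted p = 0.231).

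The likeness of other transcripts to each linker histone was measured as Pearson's r of log2 signals over the 24 arrays, which share temperature groups, replicates and array scaling. For AT1G06760 the most alike of 12906 probe sets was EXO (AT4G08950), a gene of cell expansion that responds to brassinosteroid, with r = 0.961, followed among probe sets with 1 locus by AT4G01410 (0.938), MCCB (0.934), AT2G15960 (0.928) and MYBR1 (0.927). EXO averaged 7399 ± 1025 at time 0 at 27°C and 2790 ± 335 at time 0 at 17°C, and 1378 ± 454 at the end at 27°C and 1262 ± 107 at the end at 17°C, the same order of groups as in total RNA of AT1G06760 except that AT1G06760 was slightly lower at 27°C at the end. For AT2G30620 the most alike was AT3G52800 (0.938), before AT2G43140 (0.916), AT2G39870 (0.915), AT3G60200 (0.914) and AT1G78260 (0.909). The linker histones correlated with each other at 0.887, which placed AT2G30620 at rank 38 for AT1G06760 and AT1G06760 at rank 21 for AT2G30620.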

How the data were processed

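The authors deposited linear MAS5 intensities, 1 per probe set and array, scaled to a trimmed mean near 500.0 on every array. The MAS5 release is not given in the sources read. The total, NS and PE RNA was hybridized in equal amounts, so the deposited intensity keeps no record of fraction size. Of 22810 probe sets 64 controls were left out, and 12906 (56.7%) with a signal of at least 50 on all 12 total RNA arrays were tested, in place of the authors' detection calls. The platform annotation named 13436 probe sets with 1 gene, 823 more were named from a supplementary list of genes, and 503 had several genes.

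Log2 signals were compared with limma 3.58.1 in R 4.3.3, since SAM, which the methods name, was not used here. The 4 groups of total RNA formed 1 fit and the 4 groups of fractions another, two-sided, with Benjamini-Hochberg adjustment over all probe sets tested. Calls required an adjusted p under 0.01 and a fold above 1.5, and for rates an adjusted p under 0.05. PE/T was regressed on NS/T, each averaged over 3 replicates, with 1 line per temperature, and half-lives and rates were computed per replicate from the time 0 array of the same number. Ratios within arrays were compared with Python 3.11.15 and SciPy 1.17.1. The fits were also run on simulated data, but for the rates the simulated noise was smaller than the spread of the linker histone replicates. That run therefore does not test the precision of the rates given here.

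NS, PE and total RNA at the end of labeling with the same number came from 1 RNA sample, and their deviations from group means correlated at 0.149 to 0.468, whereas time 0 arrays and arrays of the other temperature shared only a number. The p-values of limma rest on the spread between replicates, pooled over the groups of a fit and moderated by the spread of all probe sets in it. Named genes were both linker histones, up to 3 called members of each list of chromatin genes (or the one with the largest change), and, per linker histone, the 5 probe sets of highest correlation among those with 1 named gene. The linker histones are a pair by annotation alone, but they and the lists were picked for study with earlier results of these data known. Alternatives were quantile normalization, an offset of 50, no signal limit, a limit of 100, only the groups compared, a replicate block, other starting levels or lines for the rates, and leaving out each replicate. Changes per hour and a block of the RNA sample were added after the data were seen. Sequences were not used here.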

Additional observations from a re-analysis of the deposited data

Results flagged for a closer look

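The change of total RNA during labeling was called different between temperatures for 3 of the named transcripts, by limma's test of the difference of the changes (27°C minus 17°C). These were 1 of the 2 linker histones and 2 of the 9 H2A and H2B transcripts, beside 1.66% of all probe sets called lower. The value was -1.46 for the linker histone AT1G06760, -2.33 for the H2B gene AT2G28720 and -1.54 for the H2B gene AT2G37470, on the log2 scale, with adjusted p of 0.002, 8.8e-05 and 0.00158. AT2G28720 moved in opposite directions, at -1.41 at 27°C and 0.92 at 17°C. Labeling lasted 1 hour at 27°C and 2 hours at 17°C.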

How the results depend on the processing

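Of 676 values recomputed under alternatives, 604 kept their direction, their side of the threshold or, for counts and rates, their size. Precision is limited by 3 arrays in each group, and both linker histone signals lay far above the limit of 50 on every array, so signal strength was not a limit for them. The call for AT1G06760 at time 0, those for both genes during labeling at 27°C, and those for transcription and decay rates held under each alternative run. The cause of the shifts below was not tested.

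Without the signal limit AT1G06760 lost its calls, at the same estimates, for the change at 17°C (-0.72), for the difference of changes (-1.46) and for NS minus PE at 17°C (0.69). The number of probe sets called was then 677 at the end of labeling, 1917 at time 0, 736 for the change at 17°C, 42 for the difference of changes, 754 in NS RNA, 502 in PE RNA and 0 for the difference of NS minus PE, against 1399, 2941, 1598, 307, 1554, 1152 and 9. With the replicate block AT1G06760 lost the call at 17°C (-0.72) and the difference of NS minus PE had 0 calls. No other call of the linker histones changed with the replicate block, which the labels' numbers support only within 1 RNA sample. With changes per hour, an alternative chosen after seeing the data, AT2G30620 reached -0.78 and 1488 probe sets were called. Only the groups compared gave 965 calls in NS RNA. The difference of NS minus PE had 0 calls with quantile normalization, 37 with an offset of 50 and 24 with a limit of 100.

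Quantile normalization brought AT2G30620 past the limits for NS minus PE, at 0.76 at 27°C and 0.70 at 17°C. Calls for NS minus PE at 27°C were 3190 higher and 2897 lower, against 4872 and 2313 as deposited, and at 17°C 3518 and 3302, against 4591 and 2820. In PE RNA they were 406 and 394, against 439 and 713.

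With the level at the end of labeling as the starting level, half-lives of AT1G06760 were 1.80 hours at 27°C and 6.70 hours at 17°C, and those of AT2G30620 were 1.40 and 5.29 hours. The transcription rate of AT1G06760 relative to the median turned to -0.30, with 1414 probe sets called against 881. Rates in units per hour were then 424 at 27°C and 149 at 17°C for AT1G06760, and 841 at 27°C for AT2G30620. With 1 line per replicate they were 566 at 27°C and 141 at 17°C for AT1G06760, and 824 and 257 for AT2G30620.

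Leaving out each replicate in turn, AT1G06760 ranged from -0.19 to 0.0894 (without replicate 3 at 27°C) at the end of labeling, from -0.80 to -0.63 for the change at 17°C, from 0.66 to 0.73 for NS minus PE at 17°C and from -0.26 to 0.0045 for the difference of NS minus PE, where AT2G30620 ranged from -0.017 to 0.17. The rate of AT2G30620 at 17°C ranged from 294 to 354. Probe sets called ranged from 888 (without replicate 3 at 27°C) to 1495 at the end of labeling, 1055 (without time 0 replicate 1 at 17°C) to 1675 for the change at 17°C, 163 to 327 for the difference of changes, 690 to 1334 in NS RNA, 488 to 862 in PE RNA, 0 to 1 for the difference of NS minus PE, 402 to 815 for transcription relative to the median, and 2185 (without replicate 3 at 27°C) to 4002 for decay. Rates without a signal limit gave no usable value, since the regression then had an NS factor below 0 (-0.628 at 27°C and -0.540 at 17°C), and the differences of changes need all 4 groups.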

Other observations

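The level at which the measured transcription and decay rates would balance is the rate divided by the decay constant. For AT1G06760 it was 406 ± 119 units at 27°C and 529 ± 118 units at 17°C (SD, n = 3 each), and the total signal at time 0 exceeded it 14.7 ± 5.33 times at 27°C and 4.23 ± 1.16 times at 17°C. At the end of labeling the total signal was 3.11 ± 0.348 times this level at 27°C and 2.55 ± 0.592 times at 17°C. For AT2G30620 the level was 974 ± 255 units at 27°C and 1434 ± 707 units at 17°C, exceeded at time 0 by 5.65 ± 1.54 times at 27°C and 3.62 ± 2.23 times at 17°C, and at the end by 2.85 ± 0.445 times at 27°C and 2.71 ± 1.39 times at 17°C. These values have no test, since the rates were computed from the same signals. They were not computed for the other probe sets with rates, so none is shown to be particular to the linker histones.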
